A study of Mus musculus with 6 samples.

Results

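The genes described here are the mouse zinc finger genes whose RefSeq symbol is Zfp and a number below 600, with Zfp36 left out because its protein is an RNA-binding CCCH protein of another kind. RefSeq lists 198 such genes, and 196 of them, out of 23462 genes matched on the arrays, had at least 1 probe. They were compared in BV2 cells, an immortalized mouse microglial line, on 3 control arrays and 3 arrays labelled PGC-1α overexpression, all from cells stimulated with LPS, a component of bacterial membranes. The arrays lay on 2 slides, the first with 2 arrays of each group and the second with 1 of each. The culture methods give 500 ng/ml LPS for 6 h, and have PGC-1α introduced with a lentivirus followed by puromycin selection, but those methods do not name the arrays, and whether the control cells carried an empty virus is not stated for them. The genes were chosen on the measured contrast between these same arrays, in which the family had a low median, so the differences below are given as a description, with no test over the family.

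Most Zfp genes encode C2H2 zinc finger proteins, in which repeated fingers, each folded around a zinc ion, read short DNA sequences. Many of them also carry a KRAB box, which recruits the corepressor TRIM28 and, through it, the histone H3K9 methyltransferase SETDB1, so that the bound DNA, often a transposable element, is packed into heterochromatin. The family grew by local duplication and lies largely in clusters, and other members act as activators, lineage regulators or RNA-binding and ubiquitin-pathway proteins.

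Promoter sequence is shown for those of the 5 members with the largest differences in each direction, described below, that have a single promoter window in the RefSeq table (GRCm38.p6). These are Zfp3, Zfp213 and Zfp334 on the lower side and Zfp2, Zfp456, Zfp365 and Zfp42 on the higher side. Each line holds the 250 bases before the annotated start, 5′ to 3′ on the strand of the gene, and capitals mark matches on either strand to any of 8 searched motifs. These were CGCATGCG, the core of the NRF1 site, then CCGGAAG, read by ETS factors, CCAAT, read by NF-Y, the GC box GGGCGG, the nuclear receptor half-site AAGGTCA that ERRα binds, the E box CACGTG, the TATA box motif TATAAA, and lastly CTCGCGAG. NRF1 and ERRα are partners of PGC-1α, a transcriptional coactivator that does not itself bind DNA.
Zfp3, chr11:70764197-70764446, plus strand: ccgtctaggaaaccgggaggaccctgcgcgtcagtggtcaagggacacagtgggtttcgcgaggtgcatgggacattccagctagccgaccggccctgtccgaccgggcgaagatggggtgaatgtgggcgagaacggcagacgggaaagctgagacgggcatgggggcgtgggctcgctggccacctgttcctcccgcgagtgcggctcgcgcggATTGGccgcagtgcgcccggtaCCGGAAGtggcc
Zfp213, chr17:23564227-23564476, minus strand: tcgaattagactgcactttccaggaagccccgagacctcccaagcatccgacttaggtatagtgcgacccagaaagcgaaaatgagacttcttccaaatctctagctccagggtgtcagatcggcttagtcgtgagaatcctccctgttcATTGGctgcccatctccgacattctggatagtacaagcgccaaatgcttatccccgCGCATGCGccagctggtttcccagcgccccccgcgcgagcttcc
Zfp334, chr2:165388260-165388509, minus strand: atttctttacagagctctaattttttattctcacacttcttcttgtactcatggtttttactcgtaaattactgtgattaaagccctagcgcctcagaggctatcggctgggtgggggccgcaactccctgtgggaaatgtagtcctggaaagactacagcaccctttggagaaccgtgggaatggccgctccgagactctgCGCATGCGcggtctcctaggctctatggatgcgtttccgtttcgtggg
Zfp2, chr11:50916177-50916426, minus strand: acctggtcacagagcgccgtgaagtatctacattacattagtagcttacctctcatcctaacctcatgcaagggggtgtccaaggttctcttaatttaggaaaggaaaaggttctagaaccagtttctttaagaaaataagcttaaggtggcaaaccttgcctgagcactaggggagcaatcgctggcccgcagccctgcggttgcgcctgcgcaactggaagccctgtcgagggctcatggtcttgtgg
Zfp456, chr13:67375764-67376013, minus strand: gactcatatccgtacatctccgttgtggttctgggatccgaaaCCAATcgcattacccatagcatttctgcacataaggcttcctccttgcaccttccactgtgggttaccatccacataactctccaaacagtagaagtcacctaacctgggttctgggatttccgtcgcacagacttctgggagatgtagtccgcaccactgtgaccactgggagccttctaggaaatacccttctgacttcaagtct
Zfp365, chr10:67912663-67912912, minus strand: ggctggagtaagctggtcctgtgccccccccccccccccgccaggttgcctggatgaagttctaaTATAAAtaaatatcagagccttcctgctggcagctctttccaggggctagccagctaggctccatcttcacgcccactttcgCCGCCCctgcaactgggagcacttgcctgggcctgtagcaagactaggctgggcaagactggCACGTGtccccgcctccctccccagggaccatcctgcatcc
Zfp42, chr8:43307010-43307259, minus strand: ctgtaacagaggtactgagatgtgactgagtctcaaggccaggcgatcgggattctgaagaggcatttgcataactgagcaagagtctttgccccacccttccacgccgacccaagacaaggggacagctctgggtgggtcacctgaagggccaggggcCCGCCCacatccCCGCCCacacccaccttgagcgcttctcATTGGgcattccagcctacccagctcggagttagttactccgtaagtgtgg
The 3 windows on the lower side each held CGCATGCG or CCGGAAG, and those of Zfp3 and Zfp213 also held CCAAT. Zfp473, not shown because it has 3 windows, held CCGGAAG in some of them and neither motif in another. On the higher side the window of Zfp365 held TATAAA, the GC box and the E box, that of Zfp42 the GC box and CCAAT, that of Zfp456 only CCAAT and that of Zfp2 none of the 8 motifs. The windows shown are too few for a comparison of the sides, and the shares over all members follow. Of the 143 tested members with a promoter in the table, 7 held CGCATGCG (4.90%, against 2.83% of 13456 tested genes) and 29 held CCGGAAG (20.3% against 12.4%). The GC box was in 42.7% of the members against 53.5% of all genes, and the E box in 3.50% against 8.71%. AAGGTCA was in 4 members (2.80% against 4.04%), of which none was past the threshold in either direction. CCAAT was in 43.4% against 39.5%, TATAAA in 9.09% against 10.7%, and CTCGCGAG in 0.699% against 1.43%. The median log2 fold change was -0.88 for the 7 members with CGCATGCG and -0.38 for those without it. Of these 7, 5 were lower, next to 46.1% of all tested members and 19.6% of all genes. For CCGGAAG these medians were -0.46 and -0.38. Other motifs went the other way, with -0.33 and -0.42 for CCAAT and -0.31 and -0.42 for the GC box. For TATAAA they were -0.32 and -0.39, for AAGGTCA -0.16 and -0.39, and for the E box -0.37 and -0.39. A match is a stretch of letters and was not tested for binding.

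Levels are log2 intensities relative to the 75th percentile of the intensity on the same array, so a level of 0 is a fairly bright probe and -6 is close to background. Each gene is represented by its brightest tested probe, levels of different genes are not set against each other, and all log2 fold changes are overexpression minus control. A gene was tested when all 3 arrays of 1 group or of both showed its probe well above background, which 180 of the 196 members and 17062 genes in all met. Lower and higher mean an adjusted p under 0.05 in limma's moderated test over those 17062 genes. At 3 arrays a group, a two-sided exact permutation test cannot give a p under 0.1. Nothing says that the arrays of a group came from separate cultures, so the tests measure the spread between these RNA samples. The overexpression arrays were dimmer, with 75th percentile intensities of 856 to 1268 against 1617 to 1893 on the control arrays. Both probes of Ppargc1a, the gene of PGC-1α, lay near background and were not tested, so that directions refer to the labels. Of 10 microglial and macrophage markers, 7 were tested, among them Itgam, Csf1r and Cd68, while P2ry12, Cx3cr1 and Sall1 were above background on 0 arrays. The tested 7 held 3 higher genes and 1 lower gene, Tmem119 (log2 fold change -2.68, adjusted p = 4.35e-05 from limma), and after quantile normalization 0 higher and 2 lower genes, Tmem119 and Adgre1. All 8 markers of astrocytes, neurons, oligodendrocytes and endothelium were tested too, 4 higher and 1 lower (3 and 1 after quantile normalization). Their summed linear level was 23.1 to 28.9 in control cells and 36.5 to 49.9 with overexpression, nearly all of it from Snap25, which did not pass after quantile normalization (0.082). Without Snap25 the sum was 1.12 to 1.22 and 1.38 to 1.56. The 7 microglial and macrophage markers summed to 64.0 to 67.7 and 90.7 to 104. In RNA of whole cultures, fewer cells of a kind and less RNA per cell cannot be told apart. The part of these markers in the Zfp differences was not tested.

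Of the 180 tested Zfp genes, 83 (46.1%) were lower on the overexpression arrays and 30 (16.7%) were higher, while 67 did not pass. Over all genes the shares ran the other way, with 19.6% lower and 36.9% higher. The median log2 fold change was -0.37 over the members and 0.23 over all genes, which puts the members 0.59 below the median gene. The scaling sets where 0 lies. After quantile normalization 84 members were lower and 17 were higher, against 22.3% and 23.1% of all genes, and the medians were -0.40 and 0.026. In all, 80 members were lower and 17 higher under both scalings, and 0 were called in opposite directions. Members that were dim on the overexpression arrays alone enter the count of 83 through their control arrays. With all 6 arrays required to be well above background, 69 members were lower and 31 higher, with a median of -0.33.

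Large differences were mostly lower ones. Among the 162 members well above background on all 6 arrays, 35 (21.6%, against 6.78% of 15219 such genes) were lower by at least 1 log2 unit and 9 (5.56% against 0.999%) by at least 2. In the same set 4 (2.47% against 5.39%) were higher by at least 1 log2 unit and 0 by 2, against 0.0854% of genes. Over all 180 members, 46 were lower by at least 1 log2 unit and 13 by at least 2. Here the 6 members with only a bound, given below, stand at their bound. Of all tested genes, for which no bounds were set, 7.53% and 1.42% were lower by as much. In the other direction 4 members were higher by at least 1 log2 unit and 0 by 2, against 6.72% and 0.176% of all genes. The 10th percentile was -1.77 for the members and -0.84 for all genes, and the 90th percentile 0.59 and 0.90, so the upper end of the family was shifted as well as the lower. Array by array, the median level over the tested members was -1.60, -1.46 and -1.52 in control cells and -1.96, -2.09 and -2.02 with overexpression. All 3 overexpression arrays therefore lay under all 3 control arrays. The same medians over all genes lay at -0.92 to -0.96 for control and -1.07 to -1.097 for overexpression. The groups were thus apart over all genes too, by less than over the members. In 89 of the 177 members with a value on every array the groups did not overlap and overexpression was lower, and in 36 it was higher, against 22.9% and 42.6% of all genes.

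**Figure D1:**
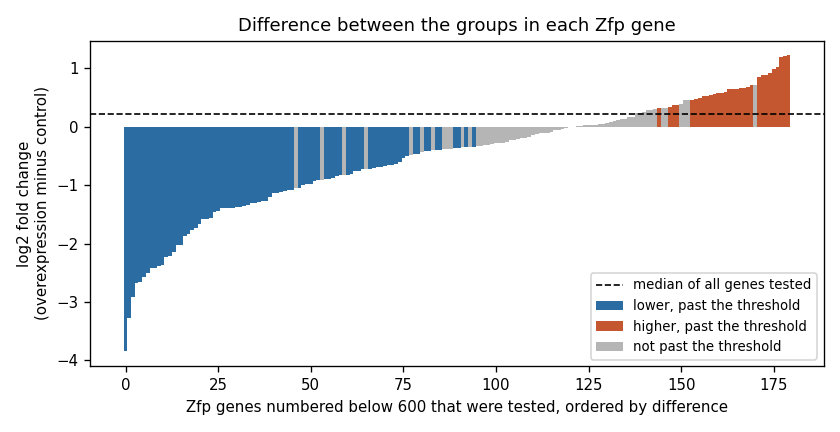
Log2 fold change (vertical axis, overexpression minus control) of the 180 tested Zfp genes in order of size, 1 bar a gene. Blue bars are the 83 lower genes, orange bars the 30 higher genes and grey bars the 67 that did not pass, and the dashed line is the median of all genes, 0.23.

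The lower members with the largest differences under the rule used here were Zfp3, Zfp213, Zfp473, Zfp251 and Zfp334. The rule took members well above background on every array and past the threshold under both scalings. It also asked for tested probes of 1 sign and for groups that do not overlap. Zfp3 read -2.36, -2.55 and -2.78 in control cells and -5.51, -4.94 and -5.19 with overexpression, a 6.29-fold lower level (log2 fold change -2.65, standard error 0.18). Zfp213 read -2.17, -2.48 and -2.73 against -4.99, -4.71 and -5.42, or 5.97-fold lower (-2.58, standard error 0.21). In both genes about 2 log2 units separated the lowest control array from the highest overexpression array.
Zfp473, whose human counterpart is a component of the U7 snRNP that processes histone pre-mRNA, read -3.36, -3.33 and -3.39 in control cells and -5.73, -6.11 and -5.73 on the other arrays, 5.65-fold lower (-2.50, standard error 0.14). Zfp251 was a bright probe in control cells, at 0.46, 0.31 and -0.10, and read -2.30, -1.96 and -2.31 with overexpression (-2.42, standard error 0.18). Its second probe gave -2.20 in the fit over probes. Zfp334 read -0.34, -0.50 and -0.57 against -2.93, -2.95 and -2.64 (-2.37, standard error 0.14). The control arrays of Zfp473 had the smallest spread of the 5 (SD 0.030, n = 3). The sizes of the dimmer ones depended on the background correction, and with normexp before the 75th percentile scaling Zfp3 was -1.29, Zfp213 -1.41 and Zfp473 -0.85, all still lower.

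The higher members chosen by the same rule, Zfp92, Zfp2, Zfp456, Zfp365 and Zfp42, all had dim probes in control cells. Zfp92 read -5.04, -4.60 and -4.54 in control cells and -3.48, -3.63 and -3.40 with overexpression, 2.33-fold higher (1.22, standard error 0.16), and its second tested probe gave 1.12. Zfp2 read -4.34, -4.44 and -4.32 against -3.28, -3.18 and -2.99, 2.32-fold higher (1.22, standard error 0.13), with a second probe at 0.79. The groups lay about 1 log2 unit apart at their nearest arrays in both genes.
Zfp456 read -4.14, -3.83 and -3.83 against -2.98, -2.38 and -2.83 (1.20, standard error 0.18). Zfp365 read -5.34, -4.74 and -5.04 against -4.12, -3.76 and -4.18 (1.02, standard error 0.19). Zfp42, which encodes REX1, a marker of pluripotent stem cells, read -5.02, -5.16 and -5.52 against -4.25, -3.70 and -4.75. It had the widest spread of the 5 with overexpression (SD 0.53, n = 3), and its groups came closest to each other. With normexp and quantile normalization Zfp92 was 0.59 and Zfp365 0.42, both still higher, and Zfp42 (0.31) did not pass.

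**Figure D2:**
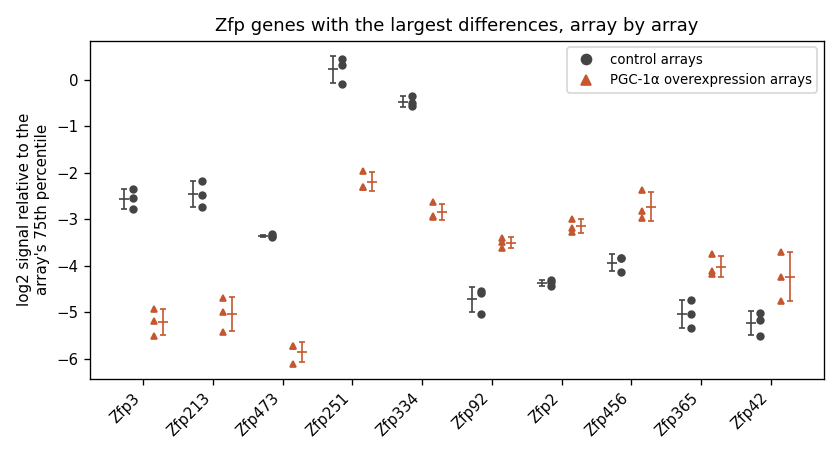
Level of the 10 Zfp genes with the largest differences (vertical axis, log2 intensity relative to the 75th percentile of the array) on each control array (grey circles) and overexpression array (orange triangles), with the mean and SD of each group beside them (n = 3). That the groups do not overlap was a condition for choosing the 10. The 5 lower genes are separated by more than the 5 higher ones.

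For 6 further lower members the size of the difference could only be bounded, because their probe was not well above background on any overexpression array. The bound sets the control mean against the dimmest signals that the overexpression arrays measured above background. Such a signal is not a strict detection limit. On overexpression replicate 1 it was -6.71, while Zfp202 read -6.47 there and was not well above background. Zfp11 read -3.98 on average on the control arrays and -7.25 with overexpression, which is at least 4.99-fold lower. Zfp202 (-4.07 and -6.74) was at least 4.43-fold lower, Zfp319 (-4.45 and -8.29) at least 3.61-fold and Zfp30 (-5.23 and -8.15) at least 2.09-fold. Zfp592 (-5.41 and -7.63) was at least 1.86-fold lower and Zfp420 (-5.71 and -7.44) at least 1.51-fold. With normexp background correction before the 75th percentile scaling Zfp30 (-0.14) and Zfp592 (0.031) did not pass. Both fell short of their bounds, so the bounds hold only for the background subtraction used in the main values. No tested member had the opposite pattern, with a bound on the control side. Of the 16 members that were not tested, 12 were well above background on 0 arrays, among them Zfp40, Zfp105 and Zfp541, and Zfp112 and Zfp324 were so on 2 control arrays and 0 overexpression arrays. Zfp65 and Zfp419 had no probe.

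The difference between the family and all genes was widest among dim probes. When all tested genes were ordered by their mean level over the 6 arrays and split into 4 classes of equal size, the 49 members of the dimmest class had a median log2 fold change of -1.26, while all genes of that class had 0.54. Of these members 63.3% were lower, against 16.8% of all genes there. In the next classes the member medians were -0.60 (67 members) and -0.28 (42 members), against 0.044 and -0.047 for all genes. The brightest class held 22 members with a median of 0.082 against 0.35, with 2 lower (9.09% against 4.76% of the class) and 7 higher (31.8% against 45.7%). After quantile normalization the medians of the dimmest class were -1.43 and 0.35, and those of the brightest -0.18 and -0.026. The order by brightness uses the overexpression arrays too, so a gene that fell moves toward the dim end. The filter asks for 1 group only, so it also takes in genes that were near background in the other group. Among the members, 6 were well above background on no overexpression array and 9 on 1 or 2, while 3 were so on under 3 control arrays. A spot left out as an outlier counts here as not above background. That applied to Zfp457 among the 9 and to Zfp35 and Zfp367 among the 3, which were not near background. Class medians for genes well above background on all 6 arrays are not given here.

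**Figure D3:**
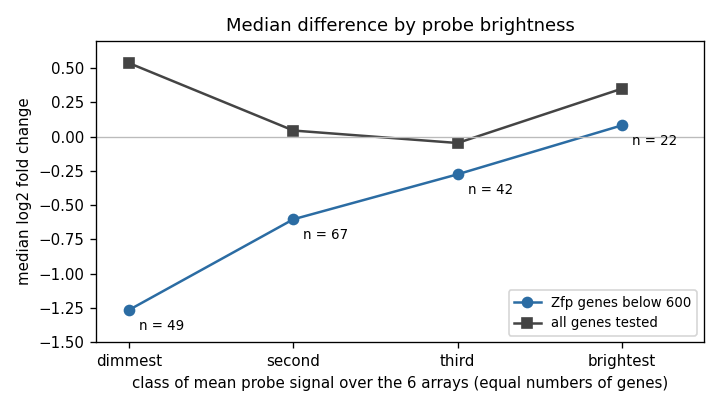
Median log2 fold change (vertical axis) of the Zfp genes (blue circles, with their number) and of all tested genes (grey squares) in each class of mean signal over the 6 arrays (horizontal axis). The members lie under all genes in every class, by 1.80 in the dimmest and by 0.23 to 0.65 in the others.

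In a list of 6 KRAB repressors and imprinting factors 4 genes were lower (66.7%, against 19.6% of all genes) and 1 was higher, with a list median of -0.69. Zfp90 read -0.96, -0.88 and -0.86 on the control arrays and -2.80, -3.12 and -2.87 with overexpression, 4.08-fold lower, with the groups far apart. Zfp568, which silences a placental Igf2 transcript in the embryo, read 0.36, 0.36 and -0.08 against -0.63, -0.49 and -0.90 (-0.89, standard error 0.17). Zfp263 differed by -0.49 (standard error 0.14) and Zfp30 is the bounded gene above. Zfp263 did not pass without control replicate 2 (-0.47) or 3 (-0.45). Zfp57, which keeps DNA methylation at imprinted regions, was the higher gene, at -5.84, -5.76 and -6.25 against -5.35, -4.91 and -5.60, close to background. Its second, dimmer probe was higher too (1.64), with 1 control array well above background. The value of the first probe was 0.66 and did not pass after quantile normalization (0.42) or without control replicate 3 (0.51), overexpression replicate 1 (0.69) or 2 (0.48). Zfp110, a protein that binds the p75 neurotrophin receptor, differed by -0.29 (standard error 0.12) and did not pass at its brightest probe, while its other 2 probes were lower, at -0.46 and -0.65. Without overexpression replicate 2 the gene passed, at -0.35.

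Of 10 lineage regulators 4 were higher (40%, near the 36.9% of all genes) and 1 was lower, with a list median of 0.37 against 0.23 for all genes. Zfp423, which commits cells to the fat lineage, read -4.61, -4.35 and -4.58 on the control arrays and -3.65, -3.48 and -3.73 with overexpression (0.89, standard error 0.13). Zfp503, a regulator of striatal neurons, was a bright probe, at 0.94, 1.16 and 0.88 against 1.43, 1.82 and 1.69 (0.65, standard error 0.15). Zfp536, a brake on neuronal differentiation, differed by 0.67 near background, and Zfp42 has been described. The overexpression arrays read higher than every control array in all 4 genes, which also held for 42.6% of all genes with a value on every array. These 4 were picked because they passed as higher, so the separation adds little to their calls. Zfp536 met the filter through its overexpression arrays only, since its probe cleared background on 2 control arrays. Zfp281, which acts in the transcription network of stem cells, was the lower one, at -2.73, -2.33 and -2.50 against -3.50, -4.44 and -3.49 (-1.29, standard error 0.26). Zfp521 differed by 0.46, Zfp467 by 0.29, Zfp516, an activator of brown fat genes, by 0.13 and Zfp148 by -0.11, and none of them passed. The probes of Zfp462, a protein that binds heterochromatin, gave -0.19, not past the threshold, and -0.89, lower. The second became the brighter one without overexpression replicate 1 or 2, and the gene then passed, at -0.94 and -0.80.

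Genes of general transcription and chromatin went both ways, 2 of 9 lower (22.2%) and 3 higher (33.3%), both near the shares of all genes (19.6% and 36.9%), with a median of -0.021. Zfp217, a component of corepressor complexes, read 0.44, 0.56 and 0.54 on the control arrays and -1.12, -1.71 and -1.27 with overexpression, 3.67-fold lower (-1.88, standard error 0.17). Zfp592 is the bounded gene above. Zfp131 (0.58), Zfp532 (0.50) and Zfp335 (0.32) were higher, but none of the 3 passed after quantile normalization (0.37, 0.38 and 0.25). Without overexpression replicate 1 Zfp131 did not pass (0.52), Zfp532 did not pass without any of 4 arrays, control replicate 1 (0.55) or 3 (0.35) or overexpression replicate 1 (0.53) or 2 (0.40), and Zfp335 did not pass with any 1 array left out (0.29 to 0.36). The brightest probe of Zfp532, a partner of Zfp592 in a chromatin complex, stood against its second probe, which was lower (-1.38, standard error 0.20). Zfp143, an activator at many promoters (0.030), Zfp384 (-0.021), Zfp410, an activator of Chd4 (-0.052), and Zfp219 (-0.32) did not pass. Zfp219 passed without overexpression replicate 2 (-0.43).

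Of 4 members known from immune cells 3 were lower (75%, against 19.6% of all genes) and 0 higher, with a median of -0.68. Zfp366, a regulator of dendritic cells, read -2.87, -2.91 and -2.95 on the control arrays and -4.11, -3.86 and -4.16 with overexpression, 2.19-fold lower (-1.13, standard error 0.13; -0.48 with normexp before the 75th percentile scaling). Zfp318, which controls the splicing of IgM and IgD transcripts in B cells, read 1.70, 1.89 and 1.68 against 0.97, 1.11 and 1.1004 (-0.70, standard error 0.12), and all 3 of its probes were lower, at -0.70, -0.90 and -1.03. Both genes had narrow groups that stood well apart. Zfp91, a ubiquitin ligase of the noncanonical NF-κB pathway, read 0.03, -0.46 and 0.19 against -0.85, -0.87 and -0.50 (-0.66, standard error 0.20). Its groups nearly touched, and it did not pass without control replicate 1 (-0.60) or 3 (-0.52) or overexpression replicate 1 (-0.60) or 2 (-0.59). Zfp395 differed by -0.20 and did not pass.

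Among 7 members that act on RNA, ribosomes, SUMO or the spindle, 2 were lower and 2 higher (28.6% each, against 19.6% and 36.9% of all genes) and the median was 0.095. After quantile normalization 1 was lower and 0 higher, with a median of -0.053. Zfp451, a SUMO ligase, read -0.69, -0.47 and -0.60 on the control arrays and -0.99, -1.14 and -1.02 with overexpression (-0.46, standard error 0.12), and all 3 of its probes were lower. It did not pass without control replicate 2 (-0.40). Zfp593, a factor of ribosome assembly, was lower by a small amount (-0.36, standard error 0.13), which did not pass after quantile normalization (-0.33) or without any array other than overexpression replicate 3 (-0.28 to -0.41). Zfp207, a spindle assembly protein, was bright on all arrays, at 2.89, 2.71 and 3.04 against 3.36, 3.28 and 3.44 (0.48, standard error 0.13). Its difference was 0.048 after quantile normalization, and it did not pass without control replicate 2 (0.40) or overexpression replicate 1 (0.48). Zfp326, part of a complex that couples transcription and splicing, was higher at 0.55, but did not pass after quantile normalization (0.51) or without control replicate 1 (0.37) or overexpression replicate 1 (0.46) or 3 (0.55). Zfp598, a ubiquitin ligase of stalled ribosomes (0.32), Zfp346, a protein that binds double-stranded RNA (0.095), and Zfp106 (-0.038) did not pass.

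The probes of a gene could be compared in 70 members with several tested probes. Over all 268 tested member probes, 123 (45.9%) were lower and 36 (13.4%) were higher in a fit over 38919 probes, of which 18.4% were lower and 35.4% higher. In 20 of the 70 members every tested probe was lower, in 4 every one was higher, and in 18 none passed. In 15 some probes were lower and the others did not pass, and in 7 some were higher and the others did not pass. The shares of all genes in these classes are not given here. The remaining 6 members, 8.57% of the 70 against 5.46% of the 5933 genes that could be compared in this way, passed in opposite directions with different probes. They were Zfp46 (0.46 and -2.52), Zfp493 (0.64 and -1.71), Zfp266 (0.65 and -1.63), Zfp532 (0.50 and -1.38), Zfp236 (0.53, -0.069 and -0.58) and Zfp82 (-0.88, -1.78 and 1.31), with the brightest probe first. In 5 of the 6 the brightest probe was the higher one, so that these genes count among the 30 higher members. The probes may lie in different transcripts of the gene, and their positions were not analysed here. The dimmest probe had the lower value in 44 of the 70 members (62.9%, against 62.1% of genes). Other genes gave 1 answer from every probe, and Zfp62, taken here as the member with the most tested probes, gave -1.26, -1.37, -0.72 and -0.68.

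**Figure D4:**
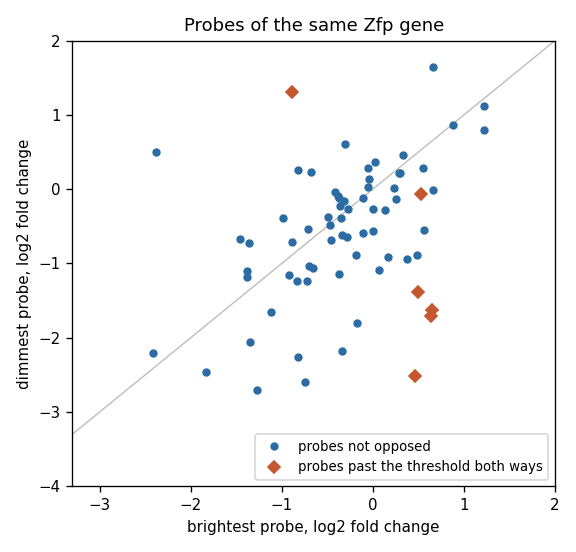
Log2 fold change of the brightest (horizontal axis) and the dimmest (vertical axis) tested probe of the 70 Zfp genes with several tested probes, 1 point a gene, with the line of equal values. Orange diamonds are the 6 genes whose probes passed in opposite directions, and 47 of the 70 genes had all probes on the same side of 0.

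Members that lie side by side in the genome did not all move alike. Of all tested members 46.1% were lower and 16.7% higher, and of all tested genes 19.6% and 36.9%. Runs of at least 4 tested members with gaps under 500000 bases held 56 members, of which 29 were lower and 5 higher (median -0.62), while 54 of the 124 members outside the runs were lower and 25 higher (median -0.31). The longest run, 13 genes on chromosome 7 from Zfp84 to Zfp146, had 9 lower and 0 higher genes and a range of -2.91 to 0.25. The low end is Zfp30, for which, as for Zfp420 in the same run, only the bound above can be given. A run of 12 on the same chromosome from Zfp180 to Zfp526 had 7 lower and 2 higher. On chromosome 13, in the region known for repressors of sex-limited liver genes, a run of 11 held 7 lower genes and 2 higher ones. Zfp87, at -2.31, -2.56 and -2.47 in control cells and -4.68, -4.26 and -4.46 on the other arrays, and Zfp456, 2.30-fold higher, thus belonged to the same run and opposed each other. The other higher gene of the run was Zfp493, which had a lower second probe (-1.71). Members of a run are related in sequence, and whether their probes bind each other's transcripts was not tested.

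**Figure D5:**
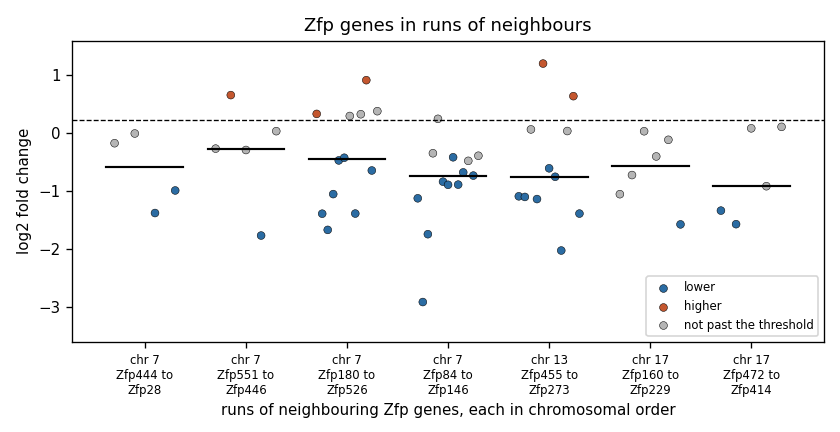
Log2 fold change (vertical axis) of the Zfp genes in 7 runs of neighbours, in chromosomal order within each run, coloured by whether they were lower, higher or not past the threshold. Short black lines are the medians of the runs, from -0.91 to -0.26, all under the dashed median of all genes (0.23).

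In part of the family 1 control array and 1 overexpression array read low together. Of the 177 members with a value on every array, 55 (31.1%, against 14.3% of all genes) had their lowest control value on control replicate 1 and their lowest overexpression value on overexpression replicate 2, and in 14 of them (7.91% against 1.85%) both stood more than 0.5 under the other arrays of their group. Zfp97 was one, at -2.71, -1.05 and -1.05 in control cells and -1.49, -2.61 and -1.09 with overexpression. Zfp160 and Zfp54, in a run of 6 genes on chromosome 17, were others. Without both arrays Zfp160 went from -1.05, not past the threshold, to -0.86, lower, and Zfp54 from -0.72 to -0.79, lower, and 78 members in all were lower and 21 higher. Both arrays lay on slide 1, together with 2 others, and the part of the slide in this pattern was not tested beyond the block given below.

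The genes through which KRAB repressors act took their balance from the scaling. Of 23 such genes, all tested, 3 were lower (13.04%, against 19.6% of all genes) and 7 were higher (30.4% against 36.9%), with a median of 0.20, next to 0.23 for all genes. After quantile normalization 4 were lower and 1 was higher, with a median of -0.16 against 0.026. The difference between these genes and the Zfp family was not tested. Setdb1, the H3K9 methyltransferase of the complex, was the clearest lower gene, at 0.93, 0.92 and 1.11 on the control arrays and 0.016, -0.33 and 0.20 with overexpression (log2 fold change -1.03, adjusted p = 0.00173 from limma). Atf7ip, which stabilizes SETDB1, differed by -0.57 (adjusted p = 0.0304 from limma), and Smarcad1, a chromatin remodeller, by -2.11 with 1 overexpression array well above background. Trim28, the corepressor that KRAB boxes bind, read 2.15, 2.05 and 1.90 against 2.27, 2.19 and 1.92 and did not pass (0.095, adjusted p = 0.591 from limma). Cbx1 and Cbx3, which encode HP1 proteins, Mbd3, Rbbp7, Gatad2b and Sumo2 were higher by 0.30 to 0.49, but none of these 6 passed after quantile normalization. Dnmt3a, a DNA methyltransferase, was higher under both scalings (0.66 and 0.63), while its second probe was lower (-0.45, adjusted p = 0.0235 from limma). The 4 lower genes after quantile normalization were Setdb1, Atf7ip, Smarcad1 and Gatad2a.

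Other zinc finger families were partly like the Zfp genes below 600, of which 46.1% were lower and 16.7% higher. Over all genes these shares were 19.6% and 36.9%. Zfp genes numbered 600 upward had 51 lower and 22 higher of 144 tested (35.4% and 15.3%, median -0.26). Zbtb genes, whose proteins join C2H2 fingers to a BTB domain, had 19 lower and 8 higher of 40 (47.5% and 20%, median -0.35). Zscan genes had 6 and 1 of 11 (54.5% and 9.09%, median -0.55) and Zkscan genes 5 and 1 of 8 (62.5% and 12.5%, median -0.67). Klf genes had 6 lower and 2 higher of 13 (46.2% and 15.4%) with a median of -0.014. The share of lower genes among Zbtb, Zscan, Zkscan and Klf genes was thus no smaller than among the Zfp genes below 600. The CCCH-type Zc3h genes had 3 lower and 3 higher of 15 (20% each, median -0.0997). The Zdhhc palmitoyltransferases, whose zinc binding serves another function, had 4 and 5 of 20 (20% and 25%, median 0.10). The difference between families was not tested. The number limit itself cuts through a continuous series of names: just under it lay Zfp595 (-1.13), Zfp597 (0.37) and Zfp598 (0.32), and just over it Zfp600 (0.23), Zfp605 (0.15) and Zfp606 (-0.28).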

How the data were processed

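The data come from 6 Agilent one-colour arrays of LPS-stimulated BV2 cells, 3 per group. Per the file headers, the authors' Agilent Feature Extraction 11.5.1.1 gave background-subtracted intensity values in the green channel, deposited without normalization between arrays (the labels give the dye as Cy3, the protocol as Cy5). The authors also deposited log2 values for part of the probes, with the normalization named only as GeneSpring's, which served as an alternative.

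Intensities were taken as log2 minus the 75th percentile of each array over 59305 spots other than controls, leaving out outlier spots and averaging repeated spots. Of 56605 probes, 33767 matched a gene through the accession and RefSeq (GRCm38.p6). The array design names mm9, so no probe coordinates are given. Groups were compared with limma 3.58.1 (R 4.3.3; lmFit, eBayes, two-sided, Benjamini-Hochberg over all genes or probes). Steps were tested on simulated data. Tables and plots used Python 3.11.15, numpy 2.4.6, pandas 2.3.3 and matplotlib 3.10.9.

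The members, the lists and the tests were chosen with earlier results of these data known. Genes were named from lists by function, and as the 5 largest differences in each direction under the conditions stated, and next to the number limit. Others named were chosen after their values were seen. Alternatives were other scalings, normexp background correction (offset 50) on median signals, the authors' values, other filters, the mean of probes, blocks by slide or replicate, a variance trend and each array left out. The number of arrays limits the precision. Protein domains and finger counts were not analysed here, and 1 gene of the list of KRAB partner genes is not reported here.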

Additional observations from a re-analysis of the deposited data

How the results depend on the processing

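The number of lower Zfp genes, 83, ranged from 63 to 94 over the alternatives. The number of higher ones, 30, was 17 after quantile normalization, 13 after normexp with quantile normalization and 16 in the authors' log2 values, and 19 to 26 with 1 array left out (19 without overexpression replicate 1). The median, -0.37, was -0.48 with each array's median in place of the 75th percentile and -0.23 with normexp and the 75th percentile, and lay between -0.41 and -0.35 with 1 array left out. The 10 partner genes past the threshold became 5 after quantile normalization, in the authors' values, without the filter on dim probes and without control replicate 1 and overexpression replicate 2 together, and 6 with the array median and with normexp and quantile normalization. They were 4 to 9 with 1 array left out, being 4 without control replicate 2, 6 without control replicate 3 and 5 without overexpression replicate 1. The alternatives for the partner genes and the other families, and leaving out those 2 arrays together, were chosen after seeing the data.

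Of the named genes, 10 changed sign somewhere, most of them near 0. Zfp143 was -0.030 after quantile normalization, -0.080 with the array median, -0.055 after normexp with the 75th percentile, -0.086 after normexp with quantile normalization, -0.028 in the authors' values and -0.10 to 0.15 with 1 array left out. Zfp384 was 0.013 after quantile normalization, 0.011 in the authors' values and -0.17 to 0.078 with 1 array left out. Zfp346 was -0.053 after quantile normalization, -0.015 with the array median and -0.046 in the authors' values. Zfp106 was 0.047 as the mean of its probes, and with 1 array left out it ranged from -0.18 to 0.17, Zfp148 from -0.25 to 0.051 and Zfp410 from -0.16 to 0.033. As the mean of their probes Zfp207 was -0.23, Zfp516 -0.074 and Zfp532 -0.44. Zfp592 was 0.031 and Zfp30 -0.14 when normexp was used before the 75th percentile, and both had probes at background with overexpression.

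The replicate numbers gave no pairing, since arrays of the same number correlated at -0.16, 0.071 and 0.60 in their deviations from the group means over 16296 genes. Control replicate 1 correlated best with overexpression replicate 2 (0.50) and control replicate 2 with overexpression replicate 1 (0.23), so not every array was nearest to its own number. The 0.60 was between replicate 3 of each group, the arrays of slide 2. A block by the best-correlated arrays was not run. With the replicate number as a block 89 members were lower and 32 higher, and with the slide as a block 91 and 34. Of the 31 named genes past the threshold, 17 kept their direction and call under every alternative that could be run for them.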
